A study of Mus musculus with 8 samples.

Results

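A group of 10 genes of the interstitial cells of Cajal and of their partner cells in the gut wall were followed: *Kit*, *Kitl*, *Ano1*, *Etv1*, *Prkcq*, *Thbs4*, *Pdgfra*, *Kcnn3*, *P2ry1* and *Gja1*. They were chosen by name, and all 10 were among the 26008 genes of the expression table and among the 19127 genes tested, those with a mean normalized count of at least 10. The colon biopsies came from bone marrow chimeras: male C57BL/6JRj wild-type mice, 7 weeks old, were lethally irradiated and engrafted with marrow of male proenkephalin-knockout (*penk*-/-, strain B6.129-Penk-rstm1Pig/J) or wild-type (*penk*+/+) donors aged 9 to 11 weeks. The study asked what enkephalins of immune cells do in the colon, and the tissue was taken 18 to 21 weeks after the graft. Each of the 4 mice per genotype gave 1 bulk RNA-seq library. Only graft-derived cells carried the deletion, so the Cajal, PDGFRA-positive and muscle cells of all 8 mice were wild-type cells of irradiated hosts, and the genotype given is that of the graft.

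Interstitial cells of Cajal are the pacemakers of gut muscle. Calcium release inside them opens the chloride channel ANO1, and the resulting slow waves spread to smooth muscle; the cells depend on the receptor KIT and its ligand KITL (stem cell factor), and the transcription factor ETV1 maintains them downstream of KIT. PDGFRA-positive interstitial cells carry the inhibitory side: ATP-like transmitters act on the receptor P2Y1 (*P2ry1*) and open the potassium channel SK3 (*Kcnn3*). Both cell types are coupled to muscle by gap junctions. *Kit* is also a mast cell gene, *Prkcq* a T cell gene, *Ano1* is made by secretory epithelia and *Pdgfra* by many fibroblasts. In bulk biopsies, fewer cells of a type and less RNA per cell cannot be told apart.

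Library depth was 33.1 M to 50.7 M reads. *Penk*, which the host's own cells retain, was at 453 to 616 normalized counts (reads scaled by the authors' size factors) in *penk*-/- and 473 to 636 in *penk*+/+ chimeras, so it did not serve to check the labels. Replicate 3 of *penk*-/- and replicate 4 of *penk*+/+ stood apart: *Pbsn*, a gene of the male accessory glands, reached 105658 and 111024 normalized counts there, against 0 to 13425 in the other 6 libraries. The log2 fold change of each member is therefore also given without this pair of libraries.

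No member passed the threshold of an adjusted *p* of 0.05 (limma on log2 values, Benjamini-Hochberg over 19127 genes), nor did any other gene, so that 0% of the genes tested were called. At an unadjusted *p* below 0.05, 822 genes (4.3%) were higher and 1020 (5.33%) lower in *penk*-/- chimeras, and 1 member, *Kitl*, was among the higher ones. Added count-based tests on 7 libraries called 5 genes with edgeR and 360 with DESeq2, none of them a member. Values of the groups did not overlap for 552 genes (2.89%) in the higher direction and 525 (2.74%) in the lower, and *Kitl* was again the 1 member of 10. In all, 5 members had a log2 fold change above 0 and 5 below it. Their median was 0.03, beside 0.01 for all genes tested.

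**Figure D1:**
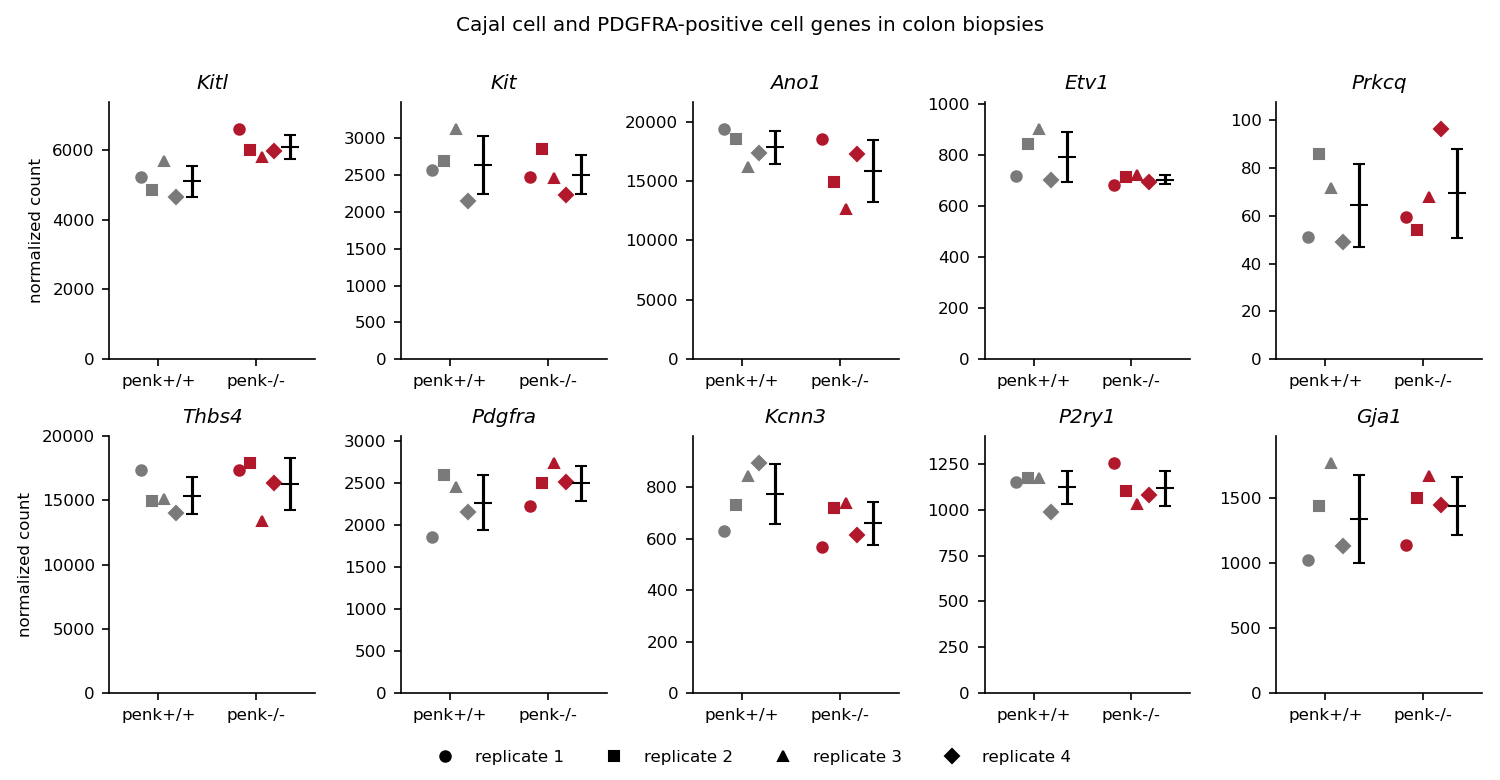
Normalized counts (vertical axes, from 0) of the 10 genes in the 4 *penk*+/+ (grey) and 4 *penk*-/- (red) chimeras, 1 point per library with its replicate number as the symbol, and mean ± SD beside the points. The *Kitl* points of *penk*-/- chimeras, 5791 to 6589, all lie above those of *penk*+/+ chimeras, 4647 to 5667, and the other 9 genes overlap.

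*Kitl*, the ligand of KIT (GRCm39 chr10:99851492-99936278, plus strand), was at 6589, 6001, 5791 and 5965 normalized counts in *penk*-/- replicates 1 to 4. In *penk*+/+ chimeras it was at 5233, 4836, 5667 and 4647. Every *penk*-/- library was above every *penk*+/+ library, with a gap between 5667 and 5791. The means were 6086 ± 347 and 5096 ± 453 (SD, n = 4 each), 19.4% higher in *penk*-/- chimeras. The log2 fold change was 0.26 (SE 0.07, 95% interval 0.09 to 0.43), with an unadjusted *p* of 0.00662 and an adjusted *p* of 0.359 in limma; it ranked at position 351 of the genes tested. An exact two-sided permutation test of *Kitl* alone gave *p* = 0.0286, the smallest that the 70 assignments of 4 of 8 libraries allow. Without the libraries rich in *Pbsn* the log2 fold change was 0.24 (adjusted *p* = 0.454 in limma). The smooth muscle score of the library had r = 0.12 and rho = 0.10 with *Kitl* (exact permutation *p* = 0.766 and 0.840, adjusted 0.833 and 0.886), and r was 0.80 without the 2 libraries farthest from the median score, so this relation depends on which libraries enter it. With the fibroblast and telocyte marker score r was 0.14, and 0.78 without the extremes. The epithelium score had r = -0.22 and rho = -0.24 with *Kitl* (exact permutation *p* = 0.615 and 0.582, adjusted 0.813 and 0.773), and r = -0.08 without the extremes. Adding the smooth muscle score to the fit, the only score used as a covariate, left the log2 fold change at 0.26. Within genotypes this score had r = -0.02 with *Kitl*, so the covariate could hardly move that value. The part of tissue composition in the *Kitl* difference was not tested.

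The promoters of *Kitl*, of its receptor and of *Ano1* are shown because the ligand was the member whose groups did not overlap and *Ano1* the member with the closest relation to a marker score of other cells. They are the 250 bases before the RefSeq start on GRCm38.p6, a build that differs from the one used for the genes: *Kitl* at chr10:100015571-100015820 (plus strand), *Kit* at chr5:75574737-75574986 (plus strand) and *Ano1* at chr7:144738574-144738823 (minus strand). Capitals mark matches on either strand to the core CCGGAA of ETS factors, the family of ETV1, to the TATA box letters TATAAA and to the GC box GGGCGG; adjoining matches run together.
Kitl: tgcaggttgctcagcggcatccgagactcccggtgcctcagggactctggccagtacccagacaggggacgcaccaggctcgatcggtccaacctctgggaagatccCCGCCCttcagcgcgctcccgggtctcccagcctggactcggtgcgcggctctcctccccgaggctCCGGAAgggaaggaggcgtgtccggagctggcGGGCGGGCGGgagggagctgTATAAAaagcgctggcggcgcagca
Kit: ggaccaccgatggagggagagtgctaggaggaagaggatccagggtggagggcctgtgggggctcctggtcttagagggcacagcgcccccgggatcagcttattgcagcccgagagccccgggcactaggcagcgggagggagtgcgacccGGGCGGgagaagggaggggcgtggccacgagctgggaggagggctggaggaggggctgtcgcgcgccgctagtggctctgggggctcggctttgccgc
Ano1: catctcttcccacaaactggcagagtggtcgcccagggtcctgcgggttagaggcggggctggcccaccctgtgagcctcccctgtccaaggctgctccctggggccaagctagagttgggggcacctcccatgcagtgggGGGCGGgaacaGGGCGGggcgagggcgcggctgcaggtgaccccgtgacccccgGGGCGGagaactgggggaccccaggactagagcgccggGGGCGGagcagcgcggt
All 10 members had an entry among 32851 windows. The ETS core was in 12% of them and, of the members, in *Kitl* alone. TATAAA was in 12.4% of windows and in *Etv1* and *Kitl*, whereas GGGCGG was in 32.7% and in 6 members, *Ano1*, *Kit*, *Kitl*, *P2ry1*, *Prkcq* and *Thbs4*. These matches describe letters, not bound sites. The percentages are shares of windows, whereas a member was counted when any window listed under its name matched. The sequences shown are the first window listed for each gene.

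*Kit*, the receptor (chr5:75735576-75817404, plus strand), was at 2479, 2859.7, 2463 and 2229 normalized counts in *penk*-/- and 2575, 2697, 3124 and 2153 in *penk*+/+ chimeras. The groups overlapped over most of their range, with means of 2507 ± 261 and 2637 ± 400 (SD, n = 4 each). Its log2 fold change was -0.07 (SE 0.12, 95% interval -0.33 to 0.19, adjusted *p* = 0.899 in limma), which leaves room for differences of either sign. It was -0.15 without the libraries rich in *Pbsn*, -0.01 without *penk*-/- replicate 4, -0.13 without *penk*-/- replicate 2, -0.16 without *penk*+/+ replicate 4 and 0.02 without *penk*+/+ replicate 3. On the log2 scale the ratio of *Kitl* to *Kit* was 1.41, 1.07, 1.23 and 1.42 in *penk*-/- libraries, against 1.02, 0.84, 0.86 and 1.11 in *penk*+/+ libraries. These groups overlapped by 1 library, *penk*+/+ replicate 4 standing above *penk*-/- replicate 2.

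*Ano1*, the pacemaker chloride channel (chr7:144142278-144305711, minus strand), was at 18500.3, 14930.3, 12644 and 17252 normalized counts in *penk*-/- chimeras. In *penk*+/+ chimeras it was at 19353, 18487, 16195 and 17319.7. The 2 lowest libraries, replicates 3 and 2, were *penk*-/- and the highest was *penk*+/+, but the groups overlapped. Its log2 fold change was -0.18 (SE 0.12, adjusted *p* = 0.659 in limma) and was -0.09 without the libraries rich in *Pbsn*, of which replicate 3 of *penk*-/- is the lowest for *Ano1*. Leaving out that library alone gave -0.08, and leaving out each of the other 7 gave -0.26 to -0.14.

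*Etv1*, the Cajal cell transcription factor (chr12:38828851-38920483, plus strand), was at 685, 713, 723 and 696 normalized counts in *penk*-/- and 718, 846, 902 and 704 in *penk*+/+ chimeras. The *penk*-/- libraries lay close together (704 ± 17.2, SD, n = 4) and the *penk*+/+ libraries were spread (793 ± 97.2), with 2 of them inside the *penk*-/- range. Its log2 fold change was -0.16 (SE 0.09, adjusted *p* = 0.621 in limma). It was -0.23 without the libraries rich in *Pbsn* and -0.10 without *penk*+/+ replicate 3, the highest for *Etv1*. *Prkcq*, a protein kinase C of Cajal cells and T cells (chr2:11176911-11306043), was the least abundant member at 53.8 to 96.1 normalized counts in *penk*-/- and 48.9 to 85.6 in *penk*+/+ chimeras. Its log2 fold change of 0.11 (SE 0.25) had the widest interval, -0.44 to 0.66, and was -0.01 without the libraries rich in *Pbsn*. *Thbs4*, a matrix protein enriched in Cajal cells (chr13:92888095-92931501), overlapped as well, at 13412 to 17869 and 14012 to 17357, with a log2 fold change of 0.08 (SE 0.10, adjusted *p* = 0.860 in limma). That value was 0.12 without the libraries rich in *Pbsn*. It was 0.03 without *penk*-/- replicate 2 or *penk*+/+ replicate 4, 0.04 without *penk*-/- replicate 1, 0.14 without *penk*+/+ replicate 1 and 0.17 without *penk*-/- replicate 3.

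Among the genes of PDGFRA-positive cells, *Pdgfra*, their receptor (chr5:75311994-75358876), was at 2231, 2505, 2737 and 2519 normalized counts in *penk*-/- and 1864, 2593, 2459 and 2156 in *penk*+/+ chimeras. The lowest library was *penk*+/+ replicate 1 and the highest *penk*-/- replicate 3, with overlap between them. Its log2 fold change was 0.15 (SE 0.11, adjusted *p* = 0.705 in limma) and 0.08 without the libraries rich in *Pbsn*. It was 0.06 without *penk*+/+ replicate 1, and 0.10 to 0.22 when each of the other 7 libraries was left out. *Kcnn3*, the SK3 channel (chr3:89427460-89582439), was at 565, 720.1, 737 and 612 in *penk*-/- and 629, 728, 842 and 891 in *penk*+/+ chimeras. In all, 2 *penk*+/+ libraries were above all others and 2 *penk*-/- libraries below all others. Its log2 fold change of -0.23 (SE 0.13, 95% interval -0.52 to 0.07, adjusted *p* = 0.630 in limma) was the lowest of the members. It was -0.21 without the libraries rich in *Pbsn* and -0.32 to -0.15 with each library left out in turn. The log2 ratio of *Kcnn3* to *Pdgfra* averaged -1.93 ± 0.11 in *penk*-/- and -1.55 ± 0.23 in *penk*+/+ libraries (SD, n = 4 each), with *penk*+/+ replicate 2, at -1.83, below *penk*-/- replicate 2, at -1.80.

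*P2ry1*, the purinergic receptor (chr3:60910159-60916403), varied least, from 1029.9 to 1251 normalized counts in *penk*-/- and from 988 to 1173 in *penk*+/+ chimeras, with a log2 fold change of -0.01 (SE 0.08, 95% interval -0.20 to 0.18) that was -0.03 without the libraries rich in *Pbsn*. *Gja1*, the gap junction protein connexin 43 (chr10:56253241-56278609), was at 1138, 1507, 1671 and 1447 in *penk*-/- and 1024, 1439.6, 1769 and 1133 in *penk*+/+ chimeras. The *penk*-/- libraries all lay inside the wider range of the *penk*+/+ libraries, and the log2 fold change of 0.12 (SE 0.18, adjusted *p* = 0.871 in limma) was -0.02 without the libraries rich in *Pbsn*. It was 0.00347 without *penk*+/+ replicate 1, 0.05 without *penk*-/- replicate 3 or *penk*+/+ replicate 4, 0.23 without *penk*-/- replicate 1 and 0.27 without *penk*+/+ replicate 3.

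**Figure D2:**
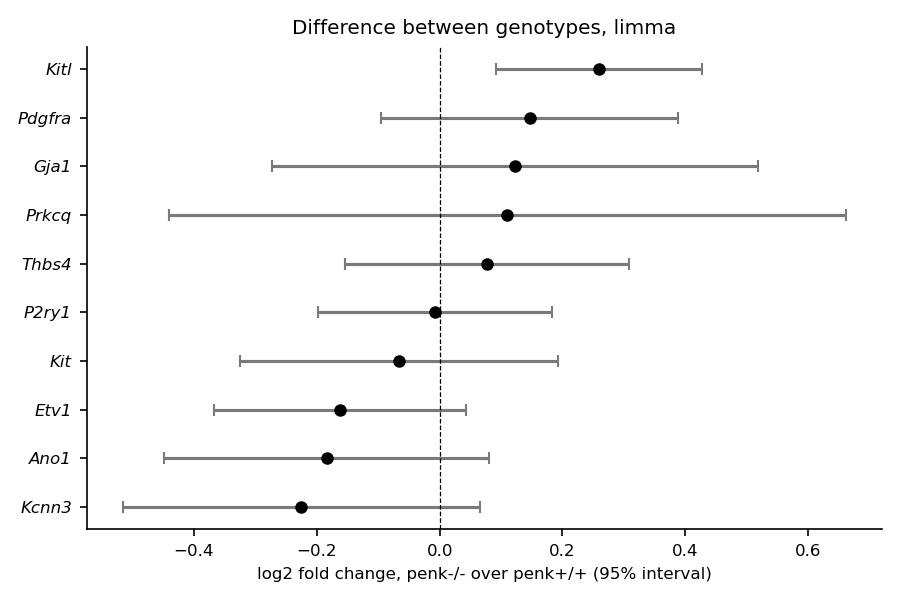
Log2 fold change of each gene, *penk*-/- over *penk*+/+ (horizontal axis), with its 95% interval from limma over 8 libraries. The interval of *Kitl*, 0.09 to 0.43, lies above 0 and the other 9 intervals include 0, before any adjustment for the number of genes.

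Per kilobase of exonic sequence, averaged over the 8 libraries, *Thbs4* stood highest with 4286 normalized counts, followed by *Ano1* with 2592 and *Kitl* with 668. *Kit* (272), *P2ry1* (232) and *Pdgfra* (194) came next, and the ranges of neighbours among these overlapped between libraries. Below them were *Gja1* (113), *Kcnn3* (68.4) and *Etv1* (53.5), again with overlapping neighbours, and *Prkcq* was far lower at 8.32.

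To compare the cell types, *Kit*, *Ano1* and *Etv1* were averaged into a Cajal cell score and *Pdgfra*, *Kcnn3* and *P2ry1* into a PDGFRA-positive cell score, each gene as log2 of its value relative to its mean over the 8 libraries. The Cajal cell score was -0.01, -0.02, -0.17 and -0.08 in *penk*-/- libraries, against 0.06, 0.14, 0.17 and -0.09 in *penk*+/+ libraries. In all, 3 *penk*+/+ libraries were above all *penk*-/- libraries and replicate 4 was below 3 of them, for a difference of -0.14 between the means. The PDGFRA-positive cell score differed by -0.03, its *penk*-/- range lying inside that of *penk*+/+. Subtracting 1 score from the other in each library left -0.11, with overlapping groups, -0.05 ± 0.12 in *penk*-/- and 0.05 ± 0.13 in *penk*+/+ (SD, n = 4 each). With *Kit* and *Etv1* alone in the Cajal cell score, a choice made after the values were seen, this difference was -0.09. The score of *Kit* and *Etv1* was -0.05 in *penk*-/- replicate 3, and its lowest library was *penk*+/+ replicate 4, at -0.16.

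**Figure D3:**
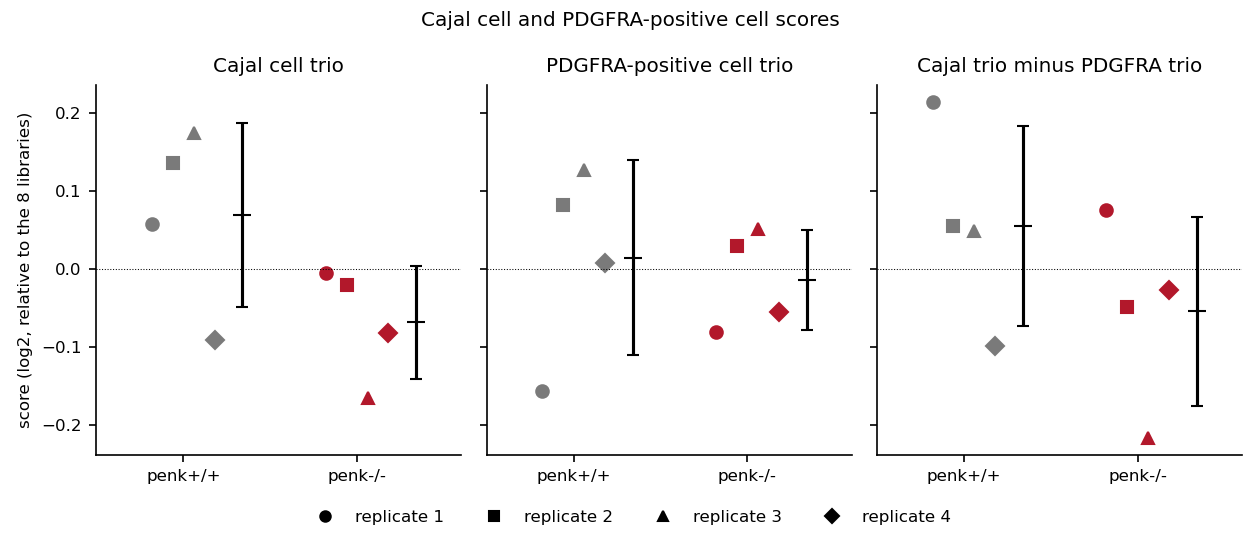
Scores on the log2 scale (vertical axis) of the Cajal cell genes, of the PDGFRA-positive cell genes, and of their difference, for each *penk*+/+ (grey) and *penk*-/- (red) library, with mean ± SD. The groups overlap in all 3 panels, and the Cajal cell score is lowest in *penk*-/- replicate 3, at -0.17. That library is the lowest for *Ano1*, and with *Kit* and *Etv1* alone (not drawn) it is at -0.05.

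The 3 genes of each score did not move as one across the libraries. *Kit* and *Etv1* had r = 0.72 and rho = 0.62 (exact permutation *p* = 0.0566 and 0.115, adjusted 0.358 and 0.492), falling to r = 0.37 without the 2 libraries at the extremes. *Kit* and *Ano1* had r = -0.13 and rho = -0.10 (exact permutation *p* = 0.768 and 0.840, adjusted 0.833 and 0.886), with r = -0.19 without the extremes. *Ano1* and *Etv1* had r = 0.02 and rho = -0.29 (exact permutation *p* = 0.964 and 0.501, adjusted 0.975 and 0.771), with r = -0.56 without the extremes. Nor did the PDGFRA-positive cell genes: *Pdgfra* and *Kcnn3* had r = 0.20 and rho = 0.07 (exact permutation *p* = 0.641 and 0.882, adjusted 0.813 and 0.918), and 0.45 without the extremes. *Kcnn3* and *P2ry1* had r = -0.54 and rho = -0.43 (exact permutation *p* = 0.165 and 0.299, adjusted 0.529 and 0.658), but r = 0.26 without the extremes, so that its sign rests on those libraries. *P*-values here are two-sided and adjusted over 77 relations, 14 planned and 63 added after values were seen, of which 5 had an adjusted *p* of r below 0.05. Library composition and normalization are shared by all genes of a library.

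**Figure D4:**
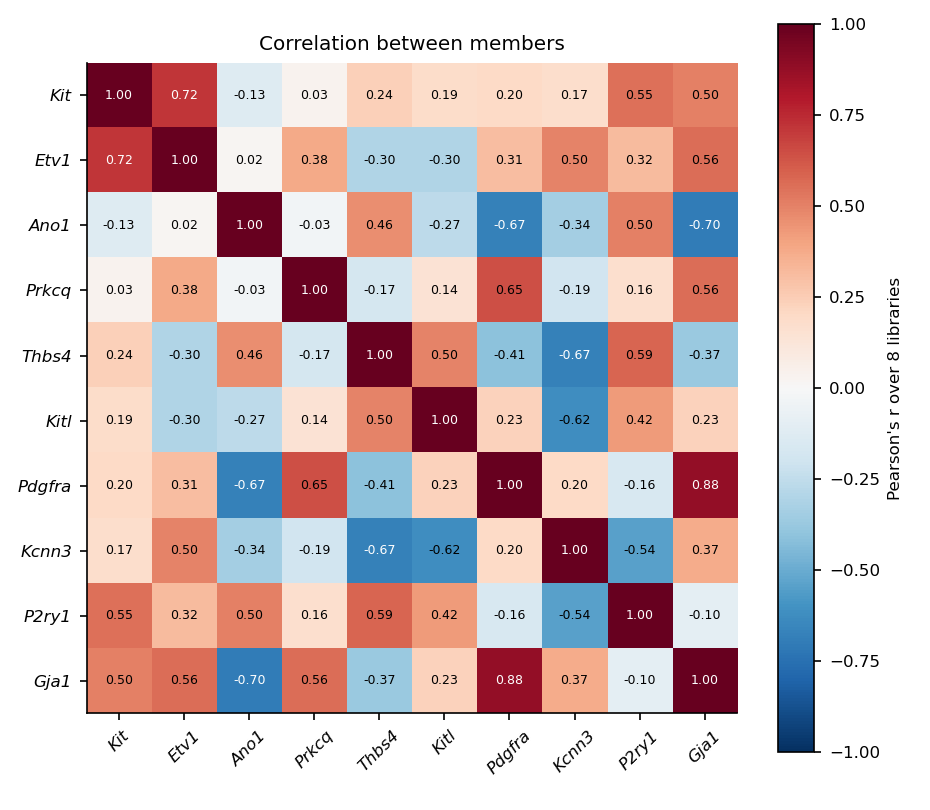
Pearson's r over the 8 libraries, on log2 values, for every pair of the 10 genes (colour scale from -1, blue, to 1, red). *Pdgfra* with *Gja1* is the highest at 0.88, and the pairs of *Ano1* with *Kit* and *Etv1* are near 0, at -0.13 and 0.02.

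*Ano1* instead followed the epithelial markers, in a relation added after values were seen. Its level rose in the same order of libraries as the score of 10 epithelial markers such as *Epcam* and *Vil1*: r was 0.98 and rho 1 (exact permutation *p* = 2.48e-05 and 4.96e-05, the smallest that all pairings of 8 libraries can give for each, adjusted *p* = 0.00191 and 0.00382). It was 0.95 without the 2 libraries farthest from the median score, 0.96 without the libraries rich in *Pbsn* and 0.98 after removing the mean of each genotype. For *Kit* and the epithelium score r was -0.09 and rho -0.10 (exact permutation *p* = 0.844 and 0.840, adjusted 0.890 and 0.886), with r = -0.48 without the extremes. The epithelial markers had a median log2 fold change of -0.15 between genotypes, none of the 10 with *p* below 0.05, beside -0.18 for *Ano1*. Their part in the *Ano1* difference was not tested. With the score of 12 fibroblast and telocyte markers, *Ano1* had r = -0.81 and rho = -0.98 (exact permutation *p* = 0.0138 and 0.000397, adjusted 0.178 and 0.0153), and r = -0.82 without the 2 extreme libraries. In a planned relation, *Ano1* fell as the smooth muscle score rose (r = -0.70, rho = -0.86, exact permutation *p* = 0.0492 and 0.0107, adjusted 0.344 and 0.118). That r was -0.53 without the 2 extreme libraries and -0.87 without the libraries rich in *Pbsn*.

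*Gja1* went with smooth muscle (r = 0.92, rho = 0.90, exact permutation *p* = 0.00315 and 0.00456, adjusted 0.0485 and 0.0878) and with fibroblast markers (r = 0.93, rho = 0.90, exact permutation *p* = 0.000893 and 0.00456, adjusted 0.0344 and 0.0878). Without the 2 libraries farthest from the median score these r were 0.88 and 0.85. *Gja1* went against the epithelium score (r = -0.73, rho = -0.86, exact permutation *p* = 0.0254 and 0.0107, adjusted 0.279 and 0.118), with r = -0.65 without the extremes. *Pdgfra* went with the fibroblast markers by r but less by rank (r = 0.91, rho = 0.76, exact permutation *p* = 0.00250 and 0.0368, adjusted 0.0485 and 0.354), 0.77 without the 2 extreme libraries. With smooth muscle *Pdgfra* had r = 0.73 and rho = 0.52 (exact permutation *p* = 0.0385 and 0.197, adjusted 0.330 and 0.658), and r = 0.55 without the extremes. *Pdgfra* and *Gja1* also went together (r = 0.88, rho = 0.67, exact permutation *p* = 0.00273 and 0.0831, adjusted 0.0485 and 0.436), and r was 0.71 without the extremes. *Kit* had r = 0.55 and rho = 0.48 with smooth muscle (exact permutation *p* = 0.165 and 0.243, adjusted 0.529 and 0.658), and r = 0.80 without the 2 extreme libraries.

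**Figure D5:**
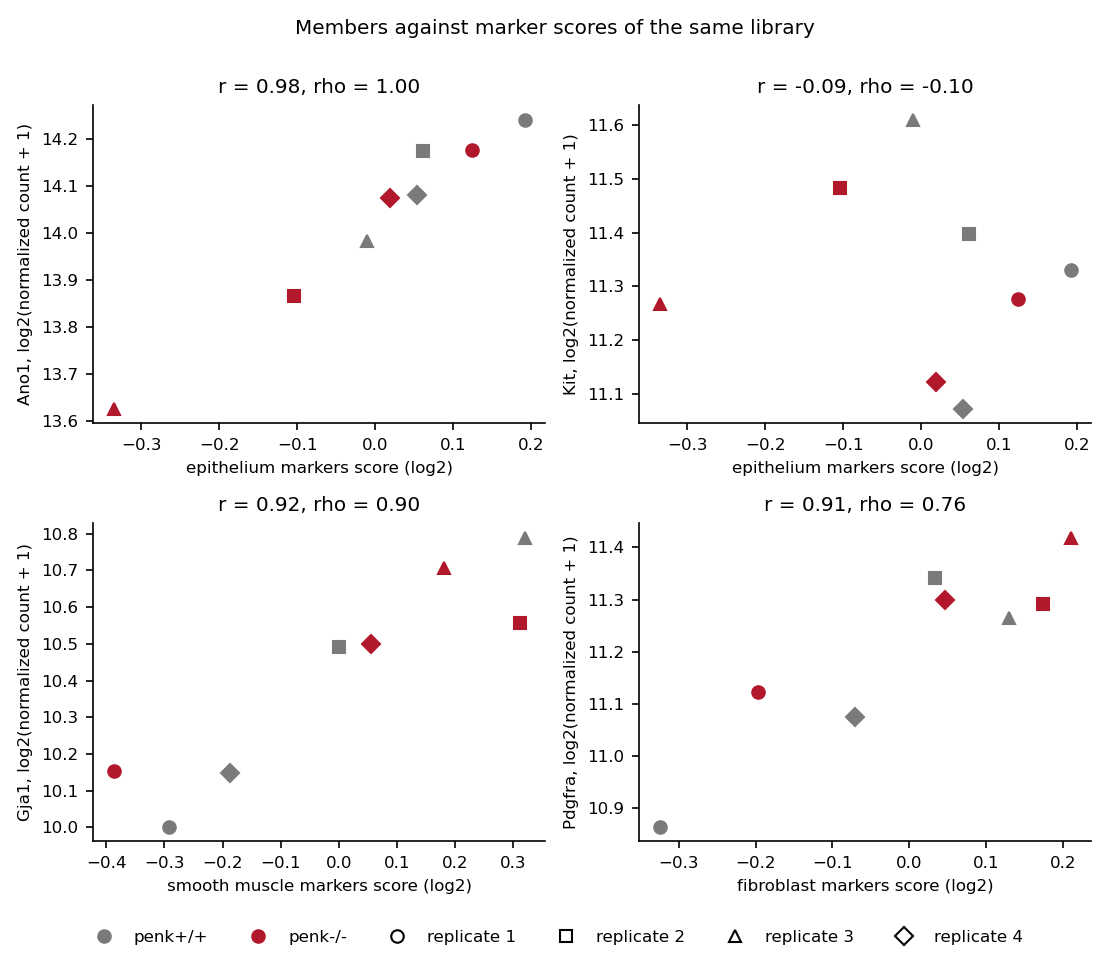
Log2 level of 4 genes (vertical axes) against the marker score of the same library (horizontal axes, log2), for *penk*+/+ (grey) and *penk*-/- (red) libraries. *Ano1* rises with the epithelium score (r = 0.98) whereas *Kit* does not (r = -0.09), and *Gja1* and *Pdgfra* rise with the smooth muscle and fibroblast scores (r = 0.92 and 0.91).

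Markers of mast cells, which also bear *Kit*, ranged widely. Named after their values were seen, *Fcer1a* and *Mrgprb2* were each at 0 in 4 of 8 libraries and reached 7.73 and 5.09 normalized counts, and *Ms4a2* reached 4.29. Other markers were above 0 in every library, with the chymase *Cma1* at 168 to 576, *Hdc* at 15.2 to 40.9, *Cd200r3* at 11.6 to 33.3 and *Cpa3* at 4.75 to 44.3. Of 13 mast cell markers, 8 could be tested, and the sum of all 13 was 342 to 2537 in *penk*-/- and 601 to 2890 in *penk*+/+ libraries, with *Gata2* at 2025 and 2429 in the 2 libraries rich in *Pbsn*. *Cma1* (log2 fold change -0.72) and *Cd200r3* (-0.82) had unadjusted *p* of 0.0174 and 0.0163 and adjusted *p* of 0.429 and 0.425 in limma. In the other direction *Tpsb2*, a tryptase, had a log2 fold change of 1.19 (adjusted *p* = 0.529 in limma), *Mcpt4* 1.29 and *Cpa3* 0.88, and 5 of the 8 markers tested were above 0 with a median of 0.16. Their part in the level of *Kit* was not tested. Over the libraries *Kit* and the mast cell score had r = -0.62 and rho = -0.57 (exact permutation *p* = 0.103 and 0.151, adjusted 0.441 and 0.554), and r = -0.45 without the 2 extreme libraries. Those are the 2 libraries rich in *Pbsn*, where the score, which includes *Gata2*, was highest (0.75 and 0.66). The score therefore does not measure mast cells alone. T cell markers summed to 271 to 383 in *penk*-/- and 266 to 461 in *penk*+/+ libraries, and *Prkcq* had r = 0.69 and rho = 0.67 with their score (exact permutation *p* = 0.0604 and 0.0831, adjusted 0.358 and 0.436), and r = 0.65 without the extremes.

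Other genes of the same pathways were compared in the same fit. Of 22 genes of pacemaker calcium and chloride handling, none was higher and 2 were lower at an unadjusted *p* below 0.05, a level that 4.3% of all genes passed as higher and 5.33% as lower. They were *Stim1*, which refills calcium stores (log2 fold change -0.17, adjusted *p* = 0.471 in limma), and the pacemaker channel *Hcn2* (-0.39, adjusted *p* = 0.492 in limma). Among 21 genes of KIT signalling, 1 was higher, the kinase *Akt1*, at 7272 to 7521 normalized counts in *penk*-/- against 6443 to 6790.2 in *penk*+/+ libraries (log2 fold change 0.16, adjusted *p* = 0.366 in limma). Its groups did not overlap, which held in this direction for 2.89% of all genes tested. *Dusp6* and *Spred1*, feedback inhibitors of the same pathway, had log2 fold changes of 0.23 and 0.13 (adjusted *p* = 0.538 and 0.540 in limma), with overlap. Of the 21 genes, 13 had a log2 fold change above 0 and 8 below it, with a median of 0.02.

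Of 23 other genes listed for Cajal cells, 1 was higher at an unadjusted *p* below 0.05, the endothelial nitric oxide synthase *Nos3* (log2 fold change 0.70, adjusted *p* = 0.498 in limma). It was low, at 30.3 to 84.3 normalized counts in *penk*-/- and 26.6 to 37.7 in *penk*+/+ libraries, with overlap. Its highest library was *penk*-/- replicate 3, rich in *Pbsn*, and its cell source was not tested. Over all genes tested 4.3% were higher and 5.33% lower at an unadjusted *p* below 0.05, and 2.89% were higher without overlap. Among 23 genes of the PDGFRA pathway and PDGFRA-positive cells, *Kcnn4*, a potassium channel related to SK3, was at 1241 to 1409 in *penk*-/- and 1083 to 1146 in *penk*+/+ libraries, without overlap (log2 fold change 0.27, adjusted *p* = 0.339 in limma). The purinergic receptor *P2ry2* was lower (log2 fold change -0.41, unadjusted *p* = 0.0140, adjusted *p* = 0.417 in limma). The cell source of *Kcnn4* and *P2ry2* in these biopsies was not tested. None of the 11 connexins tested had an unadjusted *p* below 0.05, their median log2 fold change being 0.07.

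As a description, the genes whose levels were most like those of *Kit* over the 8 libraries were *Rbm41* (r = 0.99), *Atr*, *Gm43525*, *Rdh11* and *Hmgxb4* (r = 0.98 each), with 58 genes above an r of 0.9. For *Pdgfra* they were *Cd93*, *Dennd2a*, *Ccdc65*, *Rasgrp1* and *Slco2b1* (r = 0.99 each), with 393 genes above 0.9.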

How the data were processed

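RNA-seq was performed on colonic biopsies, 1 library per mouse and 4 per genotype. Libraries were stranded, paired-end and poly-A selected, and the submitters' notes name FastQC, STAR 2.7.8a on GRCm39 (Ensembl release 107) and DESeq2 1.30.0. The strand setting of the counting is not given in the sources used here. The values deposited are a signal per gene, read counts divided by 1 size factor per library. Of them, 100% were whole multiples of a step, within 0.1 read. Reads were recovered on this basis (33.1 M to 50.7 M per library), with the limit given below for *penk*-/- replicate 1. No column was left out. Of the identifiers, 25776 matched GENCODE release 39.

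Genotypes were compared by limma 3.58.1 (R 4.3.3; trend, two-sided, Benjamini-Hochberg) on log2(value + 1) for genes with a mean of at least 10; a fold change on this scale understates the change of low genes. Nothing pairs mice with the same replicate number, and their deviations correlated by -0.32 to 0.15. The count tests planned on 8 libraries, edgeR 4.0.16 and DESeq2 1.42.0, were replaced by added ones on 7, since the whole reads of *penk*-/- replicate 1 could not be told from rounding by the unit check. Scores are means of log2 values centred on the 8 libraries; lists and members were chosen with earlier results of these data known. Exact permutation tests were two-sided (scipy 1.17.1). Named genes are the members, the 3 of smallest *p* at most of each list, the 5 genes most like *Kit* and *Pdgfra*, *Penk* and *Pbsn*. The 3 mast cell genes *Fcer1a*, *Mrgprb2* and *Ms4a2*, with *Gata2*, *Hdc*, *Cpa3* and *Mcpt4*, and *Grem1*, *Bmp5*, *Col1a2* and *Sox6* were named after their values were seen. The code was tested on simulated data. Alternatives were other pseudocounts (0.1, 8), filters (none, 50), no trend, quantile normalization, a replicate block, a smooth muscle covariate, voom and leaving out libraries. The voom fit used the recovered reads of all 8 libraries, so the limit on *penk*-/- replicate 1 applies to it.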

Additional observations from a re-analysis of the deposited data

Results flagged for a closer look

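The *P2ry1* level of *penk*+/+ replicate 4 was far from its group: 988 normalized counts against 1149.97 to 1173 in the other 3 libraries, a gap that makes up 0.874 of the range of the group. This is 1 of the 2 libraries rich in *Pbsn*. Chance flags about 1 in 20 groups of 4, which is 1.3 of the 26 groups examined (members and scores in each genotype), and this was the 1 flagged.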

How the results depend on the processing

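The number of genes with an adjusted *p* below 0.05, 0 of 19127, was 1 with quantile normalization, 1 with the replicate number as a block and 1 with a smooth muscle covariate. Leaving out 1 library at a time gave 0 to 6, with 6 when *penk*-/- replicate 1 was left out. It was 5 with edgeR and 360 with DESeq2 on the 7 libraries without that one (15364 genes with an adjusted *p* there); the cause was not tested. The count at an unadjusted *p* below 0.05 was 1842, and 1383 to 2938 under the alternatives, the highest with the replicate block. The block changed no member's call. In all 20 alternatives no member passed the adjusted threshold, and the log2 fold change of *Kitl* was 0.22 to 0.31 (adjusted *p* 0.191 to 0.640 in limma, edgeR and DESeq2). The signs of *Kit*, *Prkcq*, *P2ry1* and *Gja1* depend on the setting. *Kit* was at -0.159 to 0.0198 over the fits without 1 library, the highest without *penk*+/+ replicate 3. *Prkcq* was at -0.0572 to 0.259 over those fits, the lowest without *penk*-/- replicate 4, with -0.00628 without *penk*+/+ replicate 4 and -0.00641 without the pair rich in *Pbsn*, where *Gja1* was at -0.0241. *P2ry1* was at 0.000375 with the smooth muscle covariate, 7.33e-05 with voom and -0.0670 to 0.0292 over the fits without 1 library, above 0 in 5 of them. Leaving out each library gave -0.19 to -0.10 for the Cajal cell score difference, -0.09 to 0.01 for the PDGFRA-positive one and -0.16 to -0.05 for their difference. Of the 14 planned relations, 1 had an adjusted *p* below 0.05, and 5 of the 77 did. With 4 libraries per genotype the exact test allows no *p* below 0.0286, and at 48.9 to 96.1 normalized counts *Prkcq* is the member most limited by depth.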

Other observations

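Markers of the other cells of the gut wall were compared in the same way. Enteric neuron markers, which summed to 4466 to 7449 normalized counts in *penk*-/- and 5174 to 5994 in *penk*+/+ libraries, had no gene of 12 with an unadjusted *p* below 0.05 (limma), and neither had the 6 markers of enteric glia, the 6 of endothelium, the 11 of T cells or the 12 of smooth muscle. Of 12 fibroblast and telocyte markers 1 was lower at that level, *Bmp3*, a BMP family ligand (log2 fold change -0.25, adjusted *p* = 0.506 in limma). The log2 fold changes of 3 were below 0, *Bmp3*, *Sox6* at -0.23 and *F3* at -0.14, and those of 9 were above it. The highest were *Grem1* at 0.43, *Bmp5* at 0.30 and *Col1a2* at 0.29, and the median of the 12 was 0.16. The 6 endothelial markers all had log2 fold changes above 0, 0.02 to 0.28, as did 9780 of the 19127 genes tested. Their score overlapped between groups, at -0.29 to 0.34 in *penk*-/- and -0.49 to 0.20 in *penk*+/+ libraries. Markers of 1 cell type share the composition of a library, so their signs are not independent. Of the smooth muscle markers 9 of 12 were above 0, and of the epithelial markers 1 of 10.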
